A study of Mus musculus with 2 samples.

Results

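The genes described here encode the folding and quality-control machinery of the endoplasmic reticulum: luminal chaperones and their cochaperones, the lectin cycle with the enzyme that attaches N-glycans, the degradation pathway for misfolded proteins, the stress sensors, and proline isomerases. They were chosen as a list of 34 gene symbols by function. Of these, 30 symbols matched 42 probes of the array, against 16928 symbols and 25697 probes in all, and Dnajb11, Sdf2l1, Atf6 and Ppib were not analysed here. Total RNA of the glandular stomach was taken from mice labelled Agr2 null and from mice labelled Agr2 wild-type, and was read on Illumina MouseRef-8 v2 bead arrays. Both groups were female by their labels and 26 weeks old, and there was 1 array per group. The sources used here do not give the strain, how the Agr2 allele was made or whether RNA of several animals was pooled. Agr2 itself encodes a relative of the protein disulfide isomerases that resides in the endoplasmic reticulum of mucus-secreting cells.

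Proteins destined for secretion fold in the endoplasmic reticulum with the help of chaperones such as BiP, and glycoproteins pass through repeated binding to calnexin and calreticulin. Proteins that fail to fold are pulled back through the membrane, ubiquitinated and degraded by the proteasome. When unfolded proteins accumulate, the sensors IRE1, ATF6 and PERK raise the transcription of chaperone and degradation genes, which is the unfolded protein response. Gastric mucous and zymogenic cells secrete large amounts of protein and are rich in this machinery.

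With 1 array per group there was no replicate, so no difference below was tested, and the array and the genotype label cannot be told apart. The 2 arrays had mean probe signals of 925 (labelled null) and 811 (labelled wild-type). The targeted gene went against its label: the probe for Agr2 read 3406 on the array labelled null and 972 on that labelled wild-type. Where this probe lies relative to the deletion is not stated, and a probe outside the deletion would check nothing. The X-inactivation RNA Xist read 1774 by its brighter probe on the array labelled null and 186, below background, on that labelled wild-type. Y-linked Eif2s3y read 134, below background, on the array labelled null and 2096 on that labelled wild-type, although both samples are labelled female. By Xist and Eif2s3y the 2 arrays differed in sex, which cannot be told apart from the genotype label in any difference below. Whether the labels were exchanged was not tested, and an exchange would reverse every direction below. The arrays are therefore named by their labels throughout. Glandular mucous markers marked both arrays, with 7 of 7 measured genes above background on the array labelled null and 6 of 7 on that labelled wild-type. Markers of other tissues differed between the arrays: 1 of 12 pancreatic acinar genes and 3 of 7 squamous genes were above background on the array labelled null, against 11 of 12 and 7 of 7 on that labelled wild-type.

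Several of these genes carry the endoplasmic reticulum stress element (ERSE) near their start, and the stretches that hold it are shown because it is the element through which the stress response acts on chaperone genes. The ERSE is CCAAT, then 9 bases of any kind, then CCACG, and is known to bind ATF6 together with the general factor NF-Y. In the RefSeq promoter windows of build GRCm38.p6 (250 bases before to 50 after the transcription start), searched on both strands, it occurred in 8 of the 25 genes with a window, against 37 of 27025 genes in all (0.137%). These 8 were Calr, Canx, Creld2, Derl3, Dnajc3, Hsp90b1, Hspa5 and Syvn1. The related element ERSE-II, which is ATTGG, 1 base of any kind and CCACG, occurred in Herpud1 among these genes and in 12 genes in all (0.0444%). The 7 genes of these that were detected on the arrays are printed 5′ to 3′ on the strand of the gene, from 250 bases before the start to the base before it, with the fixed letters of ERSE or ERSE-II on either strand in capitals.
Hspa5: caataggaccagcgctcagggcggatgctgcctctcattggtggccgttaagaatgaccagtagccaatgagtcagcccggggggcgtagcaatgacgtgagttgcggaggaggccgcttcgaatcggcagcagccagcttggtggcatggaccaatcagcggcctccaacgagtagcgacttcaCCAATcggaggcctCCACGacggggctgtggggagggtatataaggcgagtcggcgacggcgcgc
Hsp90b1: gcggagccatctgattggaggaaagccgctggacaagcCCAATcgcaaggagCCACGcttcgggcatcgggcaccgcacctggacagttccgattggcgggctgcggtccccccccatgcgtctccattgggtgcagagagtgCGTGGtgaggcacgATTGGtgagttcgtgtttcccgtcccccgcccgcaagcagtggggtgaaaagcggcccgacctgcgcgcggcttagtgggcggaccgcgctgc
Calr: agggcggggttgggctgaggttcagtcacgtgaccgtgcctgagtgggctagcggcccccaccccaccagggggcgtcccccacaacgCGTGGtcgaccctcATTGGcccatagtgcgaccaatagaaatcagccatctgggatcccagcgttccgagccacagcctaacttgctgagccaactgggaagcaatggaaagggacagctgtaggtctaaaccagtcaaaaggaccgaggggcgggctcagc
Dnajc3: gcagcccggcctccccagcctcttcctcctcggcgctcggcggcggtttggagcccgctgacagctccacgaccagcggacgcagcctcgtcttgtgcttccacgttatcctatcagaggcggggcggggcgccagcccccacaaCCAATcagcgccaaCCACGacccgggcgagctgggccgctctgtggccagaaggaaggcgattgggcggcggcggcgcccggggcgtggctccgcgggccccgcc
Creld2: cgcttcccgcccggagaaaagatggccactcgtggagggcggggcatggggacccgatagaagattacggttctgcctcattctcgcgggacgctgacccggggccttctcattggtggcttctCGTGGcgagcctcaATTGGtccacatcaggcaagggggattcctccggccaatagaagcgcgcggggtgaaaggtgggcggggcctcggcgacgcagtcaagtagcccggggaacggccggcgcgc
Syvn1: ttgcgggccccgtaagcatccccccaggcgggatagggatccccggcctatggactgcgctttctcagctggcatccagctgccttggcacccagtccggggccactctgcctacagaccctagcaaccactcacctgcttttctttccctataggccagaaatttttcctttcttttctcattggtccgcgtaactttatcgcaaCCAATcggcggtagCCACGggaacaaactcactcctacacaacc
Herpud1: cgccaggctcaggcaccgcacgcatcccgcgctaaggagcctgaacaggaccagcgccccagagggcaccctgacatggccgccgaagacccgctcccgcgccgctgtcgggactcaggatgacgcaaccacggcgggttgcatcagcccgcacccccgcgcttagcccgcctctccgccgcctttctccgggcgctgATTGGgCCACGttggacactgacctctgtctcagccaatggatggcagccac
These stretches lie at chr2:34771840-34772089 (plus strand) for Hspa5, chr10:86705445-86705694 (minus strand) for Hsp90b1, chr8:84846932-84847181 (minus strand) for Calr and chr14:118937682-118937931 (plus strand) for Dnajc3. Those of Creld2, Syvn1 and Herpud1 lie at chr15:88819396-88819645 (plus strand), chr19:6046326-6046575 (plus strand) and chr8:94386179-94386428 (plus strand). Hsp90b1 held 2 elements, from -212 to -194 and, on the opposite strand, from -107 to -89, counted back from the start. The element of Syvn1 lay closest to the start, from -44 to -26, and that of Hspa5 from -65 to -47. Every ERSE includes a CCAAT and a CCACG. These short parts are common on their own, with CCAAT in 41.1% and CCACG in 35.5% of all genes with a window, and in 19 and 22 of the 25. The letters TGACGTG, the core of an element known to bind XBP1 and ATF6, occurred in the windows of Hspa5, Fkbp11 and Ube2j1, against 2.22% of all genes.

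Nearly all of the machinery had more signal on the array labelled null. Of the 30 genes, 25 were above background on at least 1 array, 23 of them on both. A gene was above background where fewer than 1% of 1314 probes for olfactory and vomeronasal receptors, which stood in for negative controls, were as bright. After background correction, quantile normalization and log2, 24 of the 25 had the higher value on the array labelled null, by any amount, as did 50.1% of all 9359 detected genes. At least 2-fold higher were 11 of the 25, against 13.1% of all detected genes, and none was 2-fold lower, against 17.0% of all detected genes. A gene below background on 1 array was also given a bound, its bright value against the higher of its own dim value and the lowest detected value of that array. Bounds and folds are on the normalized, background-corrected scale and can exceed the ratio of the deposited signals. At these bounds 9 of the 25 were at least 2-fold higher, against 10.7%. The median log2 difference (null minus wild-type) was 0.78 (0.72 at the bounds), against 0.00 over all detected genes. The middle of the list ran from 0.50 (25th percentile) to 1.23 (75th), whereas all detected genes ran from -0.62 to 0.57. Without any normalization, the deposited signals of the 30 reporting probes summed to 164951 on the array labelled null and 94256 on that labelled wild-type, a ratio of 1.75, against 1.13 over all genes. In whole tissue, fewer cells of a type and less RNA per cell cannot be told apart.

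**Figure D1:**
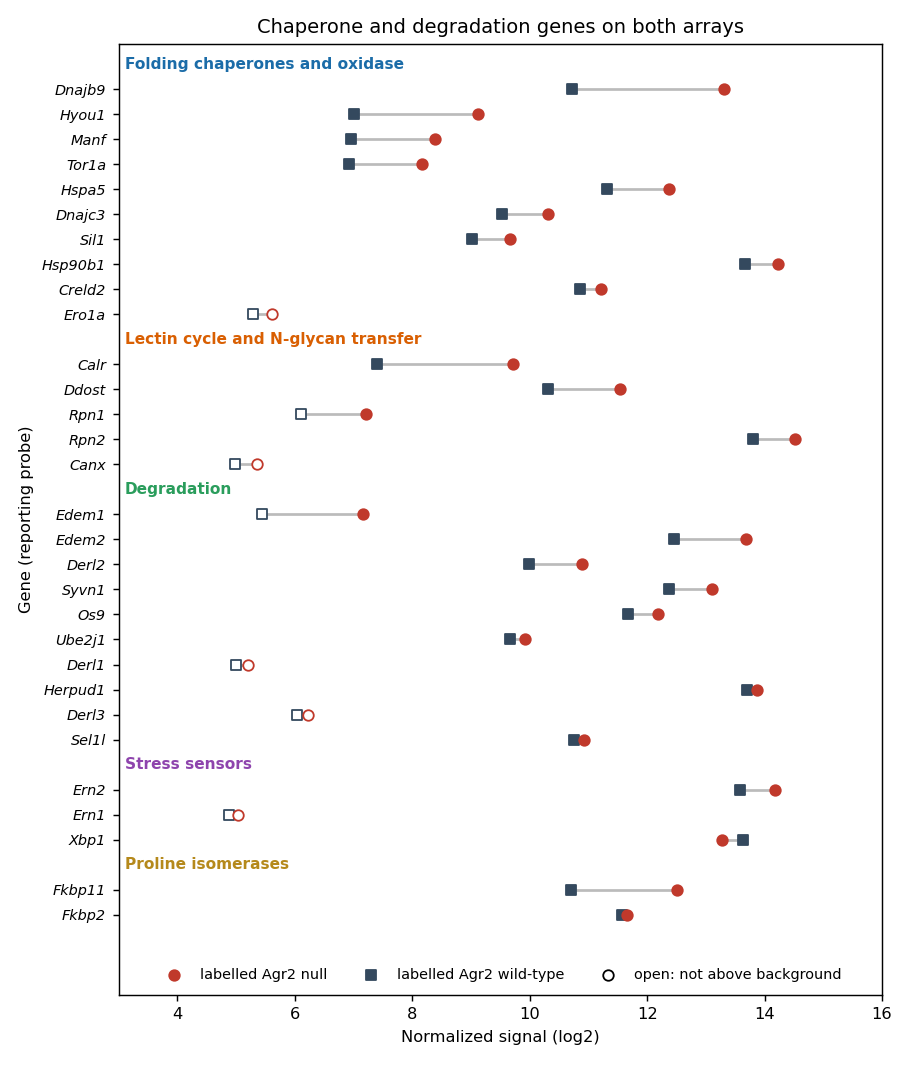
Normalized signal (log2, horizontal axis) of the 30 genes by function, with circles for the array labelled Agr2 null, squares for the array labelled Agr2 wild-type, and open symbols where the signal was not above background. The circle lies to the right of the square for every filled pair except Xbp1.

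All 9 detected folding chaperone genes had the higher value on the array labelled null, with a median log2 difference of 1.06. At least 2-fold higher were 5 of them, against 13.1% of all detected genes. Hspa5 encodes BiP, the Hsp70 chaperone of the lumen that also holds the stress sensors inactive. Its probe read 5875 on the array labelled null and 2443 on that labelled wild-type, 2.08-fold higher after normalization (log2 difference 1.06, and 0.99 to 1.13 over the processing settings tried). Dnajb9 encodes ERdj4, a J-domain cochaperone of BiP that helps route misfolded proteins to degradation. It read 10713 on the array labelled null and 1654 on that labelled wild-type, and its 5.98-fold difference (2.58 on the log2 scale) was the largest of the 25 by reporting probe. Dnajc3, another J-domain cochaperone, read 1516 on the array labelled null and 766 on that labelled wild-type (0.78 on the log2 scale).

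The 2 nucleotide exchange factors of BiP both stood higher but by unlike amounts. Hyou1, a large Hsp70 relative, read 742 on the array labelled null and 229 on that labelled wild-type, 4.29-fold higher (2.10 on the log2 scale). Sil1 read 1027 on the array labelled null and 572 on that labelled wild-type, 1.57-fold higher (0.65). The 99th percentile of the background probes was 227 on the array labelled null and 200.4 on that labelled wild-type, so the 229 of Hyou1 was close to background. Over the processing settings tried, its log2 difference ran from 1.44 to 2.23.

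The other chaperones differed by 0.36 to 1.42 on the log2 scale by their reporting probes. Hsp90b1, the Hsp90 of the reticulum, read 20129 on the array labelled null and 12420 on that labelled wild-type, 1.48-fold higher. Creld2, a stress-induced protein of the lumen, read 2735 and 1888 by its 2 probes on the array labelled null, against 1790 and 1143 on that labelled wild-type (0.36 and 0.50 on the log2 scale). Manf, listed as ARMET on the array, is a stress-induced protein of the lumen that can be secreted. It read 496 on the array labelled null and 225 on that labelled wild-type, 2.68-fold higher, with log2 differences from 0.90 to 1.55 over the settings, and was 2-fold higher in 10 of 12 settings. Tor1a, an ATPase of the lumen and nuclear envelope, read 444 and 264 by its 2 probes on the array labelled null, against 223 and 203 on that labelled wild-type (1.23 and 0.36 on the log2 scale). Its 2-fold call rests on 1 of the 2 probes and held in 8 of 12 settings, with log2 differences from 0.75 to 1.36. On the array labelled wild-type, the 225 of Manf and the 223 of Tor1a were close to the 99th percentile of background, 200.4. Ero1a, the oxidase that recharges disulfide isomerases, was below background on both arrays with signals of 168 (labelled null) and 136 (labelled wild-type), so no fold is given.

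The lectin cycle and the N-glycan transferase were higher together, in 4 of 4 detected genes. At least 2-fold higher were 3, or 2 with a gene below background at its bound, against 13.1% and 10.7% of all detected genes. Calr encodes calreticulin, the soluble lectin chaperone that binds glycoproteins with a single glucose left on their glycan. It read 1065 on the array labelled null and 265 on that labelled wild-type, 4.98-fold higher (2.31 on the log2 scale, and 1.74 to 2.45 over the settings). The 265 was above the 99th percentile of that array's background probes, 200.4, but below the brightest of them, 308. Canx encodes calnexin, the membrane-bound counterpart of calreticulin, and read 152 (labelled null) and 117 (labelled wild-type), below background on both. The other lectin of the cycle was thus not measured by this probe. Ddost, Rpn1 and Rpn2 encode subunits of the oligosaccharyltransferase, which attaches the glycan. Ddost read 3386 on the array labelled null and 1264 on that labelled wild-type, 2.34-fold higher. Rpn2 was bright on both arrays, with 24884 on the array labelled null and 13485 on that labelled wild-type, 1.65-fold higher. Rpn1 read 287 on the array labelled null and 176, below background, on that labelled wild-type, at least 1.54-fold higher.

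Degradation genes were higher as well, with a median log2 difference of 0.61 (0.53 at the bounds) over 8 detected genes, all on the side of the array labelled null and 2 of them at least 2-fold (1 at the bound). The mannosidase relatives Edem1 and Edem2, which trim glycans of proteins bound for degradation, were those 2. Among all detected genes 13.1% were at least 2-fold higher, or 10.7% at the bounds, so the count at the bound is near that share. Edem2 was read by 4 probes, with signals of 13899, 1040, 1468 and 1163 on the array labelled null, against 5363, 196, 213 and 288 on that labelled wild-type. All 4 probes were higher on the array labelled null. The brightest of them gave the smallest difference, 2.32-fold (1.22 on the log2 scale), and the other 3 gave log2 differences from 2.26 to 3.46 with dim signals on the array labelled wild-type, 1 of them below background. Edem1 read 282 on the array labelled null and 144, below background, on that labelled wild-type, at least 1.49-fold higher, and its other probe was below background on both arrays.

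The ubiquitin ligase complex differed in part. Syvn1 encodes HRD1, the ligase of the reticulum membrane, and read 9478 on the array labelled null and 5020 on that labelled wild-type, 1.66-fold higher. Its adaptor Sel1l read 2285 on the array labelled null and 1681 on that labelled wild-type by its brightest probe, a log2 difference of 0.17. The other detected probe of Sel1l gave 0.62, with 1577 on the array labelled null and 880 on that labelled wild-type, and a further probe was below background on both arrays. Os9, the lectin that hands substrates to this complex, read 5168 on the array labelled null and 3102 on that labelled wild-type (0.50 on the log2 scale). The ubiquitin-conjugating enzyme Ube2j1 read 1200 on the array labelled null and 836 on that labelled wild-type (0.26). Herpud1, a stress-induced membrane protein of the complex, read 16094 and 14008 by its 2 probes on the array labelled null, against 12708 and 10501 on that labelled wild-type. Its differences of 0.18 and 0.26 were among the smallest of the 25. Of the derlins, which take part in moving substrates out of the reticulum, Derl2 was the one detected. It read 2212 on the array labelled null and 1032 on that labelled wild-type by its brighter probe, 1.85-fold higher, and its dimmer probe read 305 on the array labelled null and 180, below background, on that labelled wild-type. Derl1 (142 labelled null, 117 labelled wild-type) and Derl3 (203 labelled null, 172 labelled wild-type) were below background on both arrays.

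**Figure D2:**
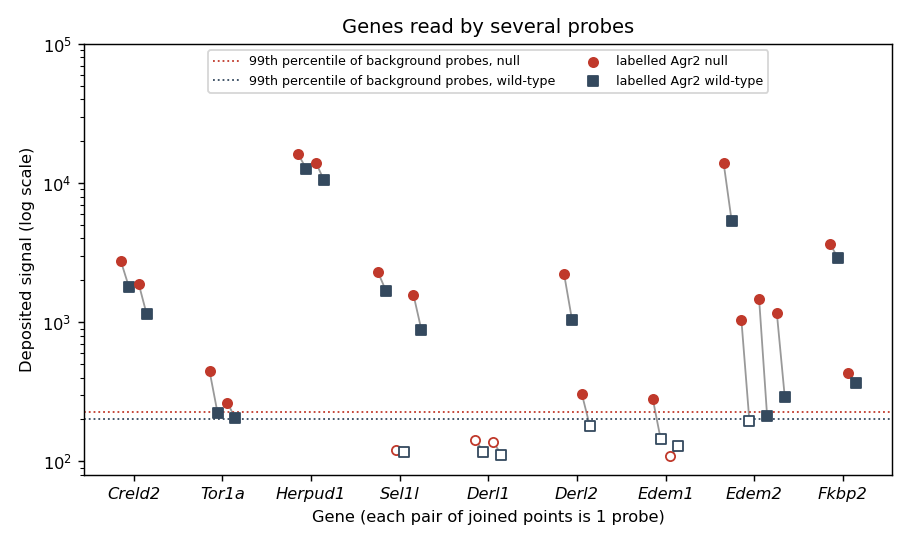
Deposited signals (log scale) of each probe of the 9 genes read by several probes, with circles for the array labelled Agr2 null, squares for the array labelled Agr2 wild-type, open symbols for signals not above background and dotted lines at the 99th percentile of the background probes. The 4 probes of Edem2 all have the higher signal on the array labelled null, with 13899 against 5363 for the brightest.

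The probes of a gene mostly pointed the same way. Of the 42 probes, 34 were above background on at least 1 array, and 32 of these had the higher normalized value on the array labelled null. The 2 exceptions were the probe of Xbp1 and the dimmer probe of Fkbp2, at -0.02 on the log2 scale. Over the 34 probes the median log2 difference was 0.76, and 15 were at least 2-fold higher. The shares over all probes were not computed. By gene, 50.1% of all detected genes were higher by any amount and 13.1% at least 2-fold. The 15 include all 4 probes of Edem2. The probe of Rpn1, the brighter of Edem1 and the dimmer of Derl2 are also among them. Each of these was detected on the array labelled null alone, at least 1.54-fold, 1.49-fold and 1.71-fold higher respectively.

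The 2 detected genes of the stress sensor group, Xbp1 and Ern2, were split in direction. Xbp1 encodes the transcription factor that IRE1 activates by splicing its mRNA, and it was the 1 detected gene with the lower value on the array labelled null. It read 10561 on the array labelled null and 11943 on that labelled wild-type, a log2 difference of -0.35. A single probe read Xbp1, its position in the mRNA is not stated, and spliced and unspliced mRNA were not analysed apart. Ern2 encodes IRE1 beta, the form of the sensor found in mucus-producing epithelium of the gut. It read 19658 on the array labelled null and 11748 on that labelled wild-type, 1.504-fold higher (0.59). Ern1, which encodes the widespread form IRE1 alpha, read 129 (labelled null) and 107 (labelled wild-type) and was below background on both.

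The 2 measured proline isomerases, which speed the rotation of proline bonds during folding, differed from each other. Fkbp11 read 6358 on the array labelled null and 1629 on that labelled wild-type, 3.496-fold higher (1.81 on the log2 scale). Fkbp2 read 3661 and 434 by its 2 probes on the array labelled null, against 2891 and 364 on that labelled wild-type, with log2 differences of 0.07 and -0.02. Fkbp2 was thus near level by both probes.

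**Figure D3:**
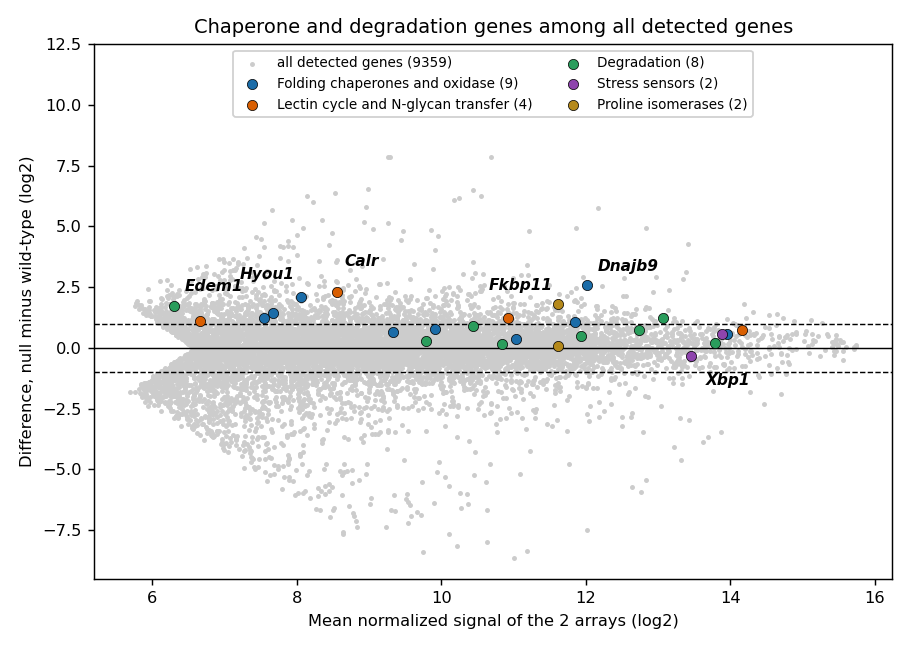
Log2 difference, null minus wild-type (vertical axis), against mean normalized log2 signal of the arrays (horizontal axis) for all 9359 detected genes in grey and the 25 detected chaperone and degradation genes in colour by function, with dashed lines at a 2-fold difference. All coloured points but Xbp1, at -0.35, lie above 0.

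When all detected genes were split into 3 equal classes by their mean level, 4 of the 25 genes fell in the dimmest class, 5 in the middle and 16 in the brightest. Their median log2 differences were 1.33, 0.78 and 0.66, against -0.08, 0.00 and 0.03 for all genes of each class. Of the 4 in the dimmest class, Edem1 and Rpn1 were detected through the array labelled null alone. At the bounds the median of the 4 was 0.93, against -0.04 for all genes of that class. At least 2-fold higher at the bounds were 2 of the 4, against 318 of 3120 in the class. Those 2 were Manf and Tor1a, both close to background on the array labelled wild-type. In the brightest class 15 of 16 were higher on the array labelled null, against 52.5% of all genes there.

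The 6 detected genes with an ERSE in the promoter window were all higher on the array labelled null, 2 of them at least 2-fold, with a median log2 difference of 0.76 and a range from 0.36 (Creld2) to 2.31 (Calr). The 15 detected genes with a window and no ERSE had a median of 0.89, with 14 higher and 7 at least 2-fold, or a median of 0.63 with 5 at least 2-fold at the bounds. Among all detected genes the share at least 2-fold higher was 13.1%, or 10.7% at the bounds. Herpud1, with its ERSE-II, was near the low end at 0.18. Outside the list, 29 genes held an ERSE, a set looked up after these values were seen. Of these, 11 were on the array and 6 were detected, all 6 with the higher value on the array labelled null (median 0.78) and 1 at least 2-fold. They included the disulfide isomerase gene Pdia6 at 1.46, the glycan-building mannosyltransferase gene Alg12 at 0.85 and the oxidase gene Ero1b at 0.51. The rest were Pan2 at 0.72, Spats2l at 0.42 and Hnrnpa3 at 0.84, and Hnrnpa3 was detected through the array labelled null alone. For comparison, 50.1% of all detected genes had the higher value on the array labelled null. A match describes letters in a window and no factor binding was measured.

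Other genes of the reticulum, grouped by function, had median log2 differences above 0 in every list but 1. At least 2-fold higher counts are read against the 13.1% of all detected genes, or 10.7% at the bounds. All 11 disulfide isomerase genes were detected with the higher value on the array labelled null, of which 4 reached 2-fold, and their median was 0.88. They ran from Pdia5 (3203 labelled null, 590 labelled wild-type, 2.38 on the log2 scale) and Pdia4 (1.96) to Erp44 (0.05) and Tmx1 (0.02). All 13 detected genes of glycan processing and transfer were higher as well, 5 at least 2-fold, with a median of 0.71. Ostc, a subunit of the oligosaccharyltransferase, read 18604 on the array labelled null and 3301 on that labelled wild-type (2.30), and the glucosidase Mogs stood at 1.16. The mannosidase Man1b1 (0.51) and the cargo lectin Lman2 (0.12) were the lowest. Of 15 further degradation genes, 12 were higher by any amount and 4 at least 2-fold (2 at the bound), with none 2-fold lower and a median of 0.56. The count at the bound is near the share of all detected genes. On the normalized scale Herpud2 was higher by 1.70-fold or more and the conjugating enzyme Ube2j2 by 1.78-fold or more, while Nploc4 (-0.36) and Aup1 (-0.20) lay on the other side.

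The list with a median below 0 was the arm of the response that runs through PERK, which slows translation and induces ATF4 and CHOP. Of its 9 detected genes, 2 were higher by any amount, none was 2-fold higher and 3 were at least 2-fold lower, or 2 by their bounds, and the median was -0.64. Of all detected genes 17.0% were at least 2-fold lower, or 13.5% by their bounds, so 2 or 3 of 9 is not far from the rest of the array. Ddit3, which encodes CHOP, read 284 on the array labelled null and 479 on that labelled wild-type (-1.51), and Chac1 read 494 (labelled null) and 848 (labelled wild-type), at -1.31. Atf4 and Cebpb were on the higher side, both at 0.61. Genes of membrane-tethered factors related to ATF6, with the proteases that release them, were mostly higher, 6 of 7 by any amount and 3 at least 2-fold, with a median of 0.92. Creb3l1 read 448 on the array labelled null and 188, below background, on that labelled wild-type, at least 3.01-fold higher on the normalized scale. Creb3l4 read 3658 on the array labelled null and 1060 on that labelled wild-type (1.62), Creb3 stood at 0.19, and Creb3l3, below background on the array labelled null, was lower there with a bound of -0.20 on the log2 scale. No difference between these lists was tested.

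**Figure D4:**
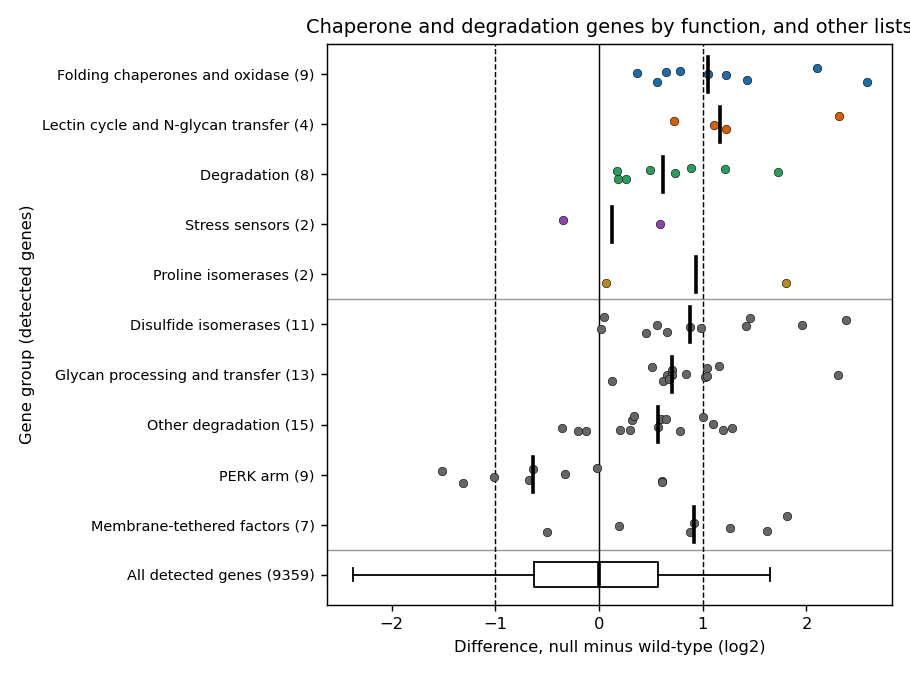
Log2 difference, null minus wild-type (horizontal axis), of each detected gene by functional group (upper 5 rows) and in 5 other lists of the reticulum (grey), with thick bars at medians, dashed lines at 2-fold and a box with 5th to 95th percentile whiskers for all 9359 detected genes. The PERK arm, with a median of -0.64, is the list whose median lies below 0.

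Markers of cell types that are rich in this machinery moved in several directions between the arrays. Of 7 measured plasma cell markers, 3 were above background on the array labelled null and 1 on that labelled wild-type, and the list's signals summed to 3290 on the array labelled null and 1282 on that labelled wild-type. The 3 detected were Mzb1, 4.76-fold higher, and Pou2af1 and Igj (the J chain of immunoglobulins), at least 5.09-fold and 4.05-fold higher on the normalized scale. Tnfrsf17, Prdm1, Irf4 and Cd79b were below background on both arrays. Chief cell markers summed to 49197 on the array labelled null and 155698 on that labelled wild-type. Most of that gap lay in Gif (2372 labelled null, 51492 labelled wild-type) and Chia1 (1352 labelled null, 48795 labelled wild-type). Pgc and Pga5 differed little, at -0.31 and -0.30 on the log2 scale. The zymogenic factor Bhlha15 went the other way, with 2999 on the array labelled null and 774 on that labelled wild-type. Pancreatic acinar markers, also of a secretory cell, summed to 8368 on the array labelled null and 48494 on that labelled wild-type, opposite in direction to the chaperones. Of the sum on the array labelled null, 6446 was Cela1, which differed little (-0.43 on the log2 scale). The other acinar markers were below background on that array. Parietal cell markers summed to 9472 (labelled null) and 182379 (labelled wild-type), smooth muscle markers to 12642 (labelled null) and 49666 (labelled wild-type), and squamous markers to 3096 (labelled null) and 143365 (labelled wild-type). Mucous cell markers summed to 201016 on the array labelled null and 177788 on that labelled wild-type, but the sum, carried by Gkn1, Gkn2 and Tff2, hides large differences in both directions. The pit cell mucin Muc5ac read 2670 on the array labelled null and 39881 on that labelled wild-type (-4.08 on the log2 scale). Gkn3 read 47368 on the array labelled null and 2368 on that labelled wild-type (4.28), and the gland mucin Muc6 read 1067 on the array labelled null and 467 on that labelled wild-type (1.08). A4gnt, which makes a glycan of gland mucus, was at least 4.99-fold higher. Markers of proliferating cells summed to 6858 on the array labelled null and 1541 on that labelled wild-type, all 5 measured ones above background on both. Neutrophil markers summed to 30881 (labelled null) and 3404 (labelled wild-type), with 5 of 6 detected genes higher on the array labelled null and Ngp at -0.16. Endocrine markers summed to 7486 (labelled null) and 75865 (labelled wild-type), with 4 of 5 detected genes lower on the array labelled null. Chgb went the other way, at least 2.04-fold higher there. The part of any of these cells in the chaperone values was not tested.

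The directions of the 25 genes did not rest on the processing settings tried. Calr, Ddost, Dnajb9, Edem2, Fkbp11 and Hyou1 were at least 2-fold higher on the array labelled null under every one of them, and no gene crossed 0. Dnajb9 and Fkbp11, bright on both arrays, varied little, from 2.47 to 2.61 and from 1.72 to 1.86 on the log2 scale. Edem1, which the array labelled wild-type read below background, was detected in 10 of the 12 settings and ran from 0.57 to 1.77.

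**Figure D5:**
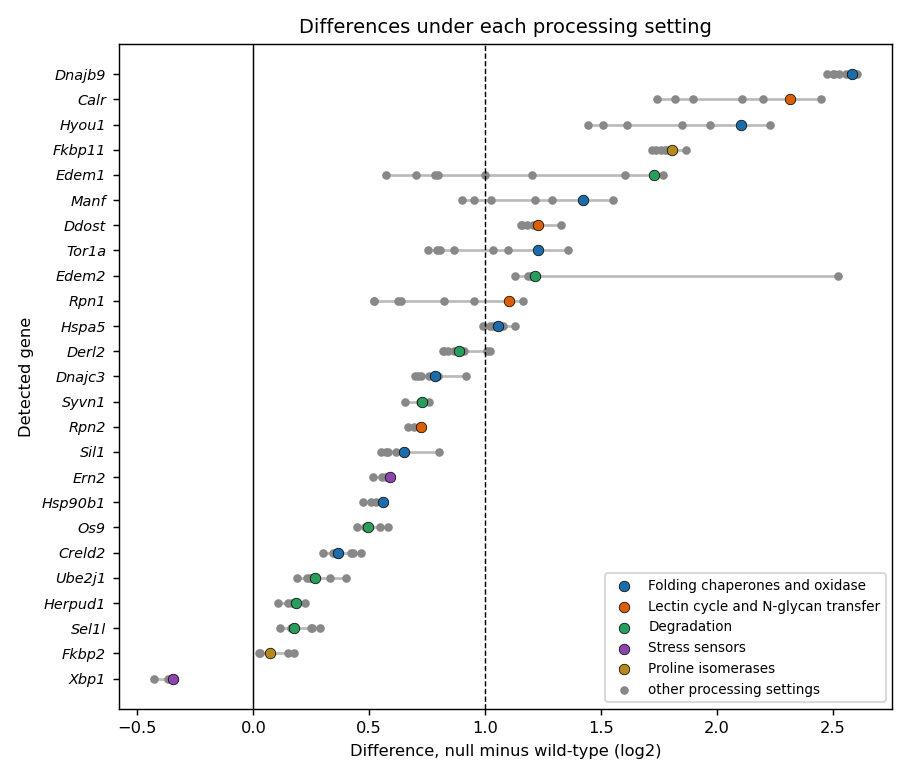
Log2 difference, null minus wild-type, of the 25 detected genes (coloured by function) and its values under the other processing settings (grey), with a dashed line at 2-fold. Xbp1 stays below 0 and the other 24 stay above 0 under every setting run, while Edem1, Edem2 and Hyou1 move the most.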

How the data were processed

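Biotin-labelled total RNA of 2 samples was read on 1-colour bead arrays, per the labels. The intensity values that the authors deposited as not normalized are linear probe signals, and the bead summary and any background subtraction are not stated in the sources. The authors' processed table holds the same intensity values times a single factor per array (0.842 for null, 0.960 for wild-type), found from the values.

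Background was corrected by normexp (limma 3.58.1, R 4.3.3) with parameters from 1314 olfactory and vomeronasal receptor probes (the files hold no control probes or detection p-values) and an offset of 16, then quantile-normalized and put on the log2 scale. If some receptors are expressed in stomach, too few genes are called detected. Each gene was read by its brightest probe. The steps were tested on simulated arrays in which a small set of bright genes was changed in random directions. Changes in dim genes, and arrays in which many genes differ, were not covered by that test. Named genes were all list members, Agr2, and in each other list of the reticulum the 2 largest differences on either side. Xist, Eif2s3y, Pdia6, Alg12, Ero1b, Hnrnpa3, Pan2, Spats2l and the cell type marker genes named were added after their values were seen. The members, lists and settings were chosen with earlier results of these data known. Promoters are from RefSeq, GRCm38.p6, with none used for Hyou1, Manf, Sil1, Derl1 and Ern2. A planned look at protein ends was not run.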

Additional observations from a re-analysis of the deposited data

How the results depend on the processing

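The 11 alternative settings changed the background correction, the normalization, the detection rule, the probe rule or the use of bounds. Under all of them, 24 of the 25 detected genes kept the higher value on the array labelled null wherever they were detected, and Xbp1 the lower. The count of 11 genes at least 2-fold higher was 7 without background correction and 7 in the authors' processed table, where all signals are less spread (7.30% and 8.56% of all detected genes were at least 2-fold higher). With other sizes in place of 2-fold, 17 were at least 1.5-fold and 5 at least 3-fold higher. Under the other settings the count was 9 to 12, the median was 0.69 to 0.92 and none was 2-fold lower. The share of all genes at least 2-fold higher under those settings was 7.86% to 15.6%. Scaling to equal medians moved the median of all detected genes to 0.12, and the genes' median stayed 0.80 above it. Calr, Ddost, Dnajb9, Edem2, Fkbp11 and Hyou1 stayed at least 2-fold higher under every setting. Edem1, Edem2 and Hyou1 moved by over 1.5 times in 8 cases, Edem1 down to 0.57, Hyou1 down to 1.44 and Edem2 up to 2.52 with its probes averaged. No paired analysis was possible because each group has 1 array, and no array could be left out. Genes with 1 signal near background limit how far their folds can be read.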
